A study of Homo sapiens with 18 samples.

Results

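The genes described here are the 4 ERBB receptors (EGFR, ERBB2, ERBB3 and ERBB4) and the 4 neuregulins (NRG1, NRG2, NRG3 and NRG4), 8 of the 53853 genes in the deposited count table, taken by symbol. The set was chosen by the measured counts of ERBB4, which were higher after dopamine in organoids of the H1 line. The H1 dopamine comparisons of all 8 genes are therefore given as values with standard errors and no test. The tests below compare the lines, or dopamine with control in H9. All 8 genes passed the filter on low counts that left 17173 genes for testing, although ERBB3 was low throughout.

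ERBB proteins are receptor tyrosine kinases that pair at the cell surface when a ligand binds and then signal through the RAS and ERK kinases, PI3 kinase and STAT factors. EGFR binds EGF, TGFA and HBEGF, ERBB2 has no known ligand and serves as a partner, ERBB3 has a weak kinase and relies on its partner, and ERBB4 binds neuregulins and can release a fragment that enters the nucleus. In the developing forebrain ERBB4 is known from GABAergic interneurons born in the ventral forebrain, where neuregulins guide their migration, and EGFR from progenitors and glia.

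RNA was measured by bulk sequencing in brain organoids patterned towards the ventral forebrain, grown from human embryonic stem cells of the lines H9 and H1 and treated at day 83. Each line had 3 groups. The chronic group received 1 µM dopamine daily for 7 days and a last dose for 1 h. The acute group received vehicle for that week and then 1 µM dopamine for 1 h, and the control group received vehicle throughout. Every group, the controls included, was in 100 µM ascorbic acid. Each group holds 3 libraries, and the libraries are numbered 1 to 18. Nothing in the labels tells if those 3 are separate cultures, so a p-value here reflects the spread among libraries and that spread could be technical.

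Depth ranged between 13647204 and 21691180 counts in all libraries but library 9. That H1 control had only 43284 counts, in which 7 of the 8 genes had 0 counts and 3 counts equal 69.3 CPM (counts scaled to a common library size), so it entered the tests but no mean, and H1 control means have n = 2. In the other libraries 3 counts equal 0.138 to 0.22 CPM. Libraries 4, 8, 13, 17 and 18 carried more transcripts of 6 blood genes than of 5 gut genes and the rest the reverse, in a split that does not follow the groups, although no chronic library is among those with more blood transcripts. The labelled ventral identity held in H9, with 9 markers of GABAergic neurons at a summed 964 to 1610 CPM and 7 markers of cortical glutamatergic neurons, a dorsal type, at 4.79 to 13.4 CPM. H1 libraries went the other way, at 28.9 to 507 and 1680 to 3560 CPM.

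ERBB4 lies on the minus strand of chromosome 2 (211375717 to 212538841, GENCODE release 44 on GRCh38) and is among the longest of the 8 genes, spanning 1163 kb. Its level was given by the deposited TPM, in which counts are scaled by gene length and library size, so that values can be compared between genes. In H9 it had 10.33, 5.87 and 10.70 TPM in the chronic libraries, 16.31, 19.28 and 20.34 TPM in the acute libraries and 12.67, 15.30 and 13.48 TPM in the controls. In H1 it had 5.03, 2.94 and 3.68 TPM in the chronic libraries, 1.85, 1.48 and 2.18 TPM in the acute libraries and 1.02 and 0.19 TPM in control libraries 7 and 8. From the highest, the group means ran H9 acute (18.6 TPM), H9 control (13.8), H9 chronic (8.97), H1 chronic (3.88), H1 acute (1.84) and H1 control (0.605). No pair of neighbours in that order overlapped. The lines thus differed in the place of the chronic libraries, lowest in H9 and highest in H1, while acute libraries lay above controls in both.

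**Figure D1:**
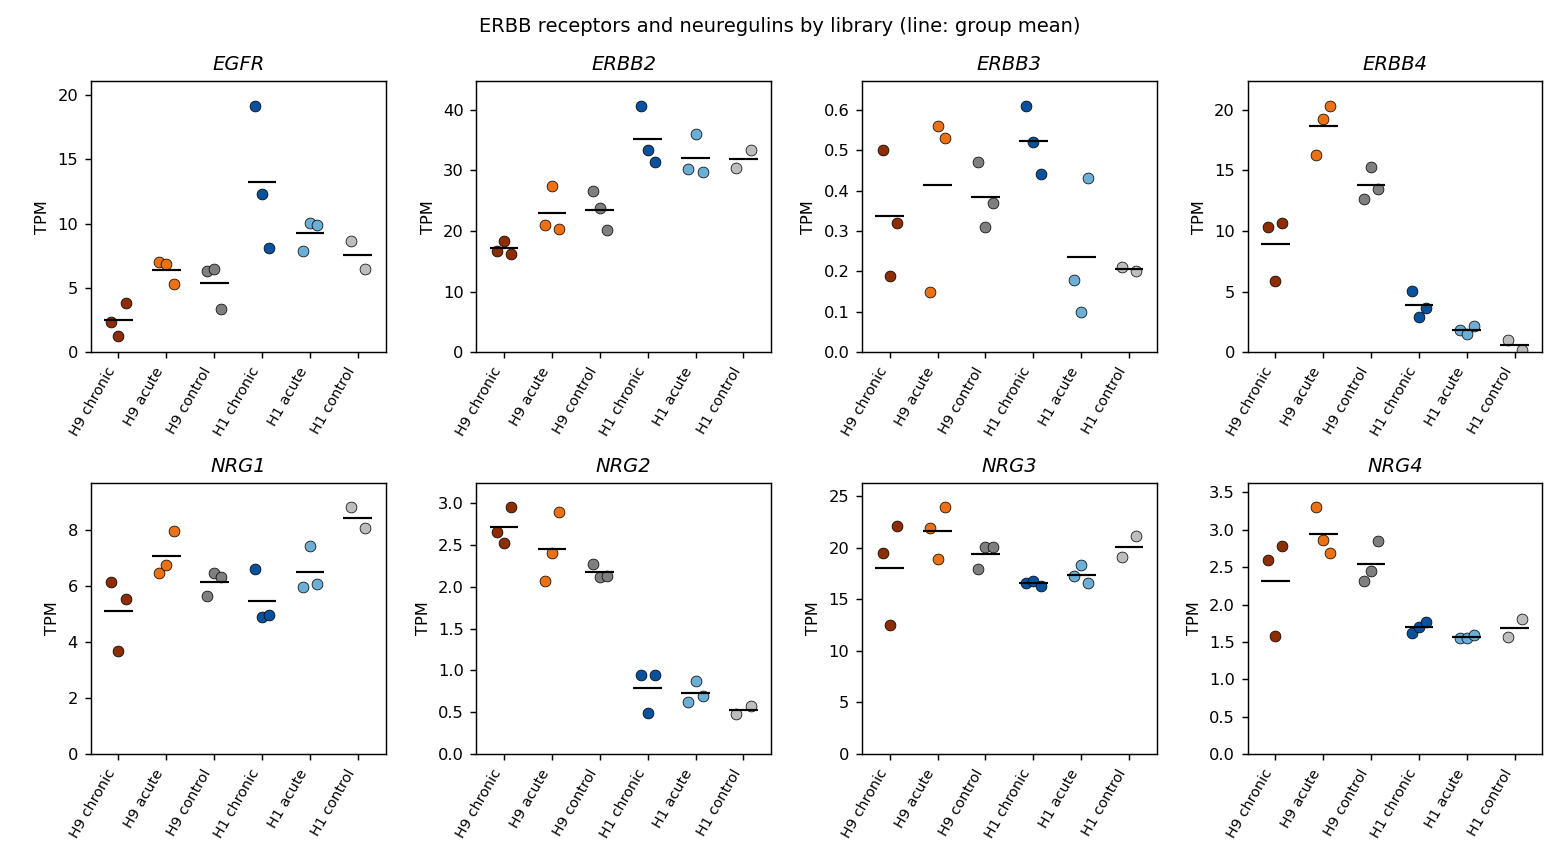
TPM (linear axis from 0) of each gene in every library except library 9, by group, with points for libraries and a line for the group mean (n = 3, and n = 2 for H1 control). ERBB4 lies between 5.87 and 20.34 TPM in H9 and between 0.19 and 5.03 TPM in H1, while NRG3 lies between 12.47 and 23.89 TPM in H9 and between 16.31 and 21.11 TPM in H1.

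In H1 the log2 fold change of ERBB4, from counts, was 2.66 ± 0.39 (SE) for chronic dopamine against control, a 6.33-fold difference, 1.64 ± 0.40 for acute dopamine against control and 1.02 ± 0.30 for chronic against acute. These values chose the genes and are a description. The size rests on the controls, which had 70 and 14 counts in libraries 7 and 8, the widest spread of ERBB4 relative to the group mean. Without library 8 the chronic and acute values were 1.89 and 0.87, and without library 7 they were 4.32 and 3.30. Using gut-transcript libraries alone, with library 7 as the sole deep H1 control, the values were 1.87 and 0.88.

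In H9, whose libraries took no part in the choice, ERBB4 had a log2 fold change of -0.58 ± 0.27 for chronic dopamine against control (edgeR adjusted p = 0.587, from its quasi-likelihood test), 0.38 ± 0.27 for acute against control (adjusted p = 1 in the same test) and -0.96 ± 0.27 for chronic against acute (adjusted p = 0.112 in the same test). None of the 3 passed, although the library ranges did not overlap in any of them. The last value passed in some other settings, with edgeR adjusted p = 0.0226 without library 7, 0.0243 without library 8 and 0.0013 without a filter on low counts. Without libraries 9 and 11, chosen after the data were seen, the chronic value against control was -0.40 (edgeR adjusted p = 0.521).

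Sums of cell type markers moved with or against ERBB4, depending on the list and the line. In bulk RNA fewer cells of a type and less RNA per cell cannot be told apart. The 9 GABAergic markers summed to 289 to 507 CPM in H1 chronic libraries, 98.2 to 355 CPM in H1 acute libraries and 28.9 to 94.6 CPM in H1 controls. GAD1, which makes GABA, averaged 58.2 ± 15.8, 26.6 ± 10.4 and 6.95 ± 4.80 CPM (SD) in the same groups. In H9 that sum went against ERBB4, at 1560 to 1610 CPM in chronic libraries, 964 to 1300 CPM in acute libraries and 1090 to 1380 CPM in controls. Across libraries, on the log2(CPM + 1) scale, Pearson's r of ERBB4 with the sum was 0.91 in H1 (n = 8) and -0.78 in H9 (n = 9). The H1 value uses the ERBB4 counts that chose the set and pools libraries of 3 groups, so it is a description. The same holds for every other r with ERBB4 in H1 below. Within the H1 acute group, library 5 had the lowest ERBB4 (6.08 CPM) and the highest GABAergic sum (355 CPM).

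The summed CPM of 6 markers of the oligodendrocyte lineage (OLIG1, OLIG2, PDGFRA, CSPG4, MBP and MOG) was 94.1 to 103 CPM in H9 chronic libraries, 76.5 to 93.4 CPM in H9 acute libraries and 89.3 to 112 CPM in H9 controls, and 34.1 to 51, 20.6 to 32.9 and 10.4 to 22.3 CPM in H1 chronic, acute and control libraries. Pearson's r of ERBB4 with this sum was -0.56 in H9 and 0.95 in H1. The sign in H9 depends on the choice of markers, since 1 marker of the list is left out of this sum, so no relation is read from it. OLIG1, a factor of that lineage, had 12.7 ± 1.89 CPM in H1 chronic libraries, 6.62 ± 2.76 CPM in H1 acute libraries and 1.86 ± 1.86 CPM in H1 controls (SD). In H9 it had 10.5 ± 4.65, 9.39 ± 3.21 and 12.9 ± 6.79 CPM in chronic, acute and control libraries, with overlapping ranges. OLIG2, its close relative, had 12.7 ± 5.82, 11.5 ± 3.70 and 14.5 ± 6.03 CPM in the same H9 groups, and the myelin gene MBP 71.6 ± 12.8, 58.5 ± 9.17 and 63.0 ± 6.23 CPM. MOG, a gene of mature oligodendrocytes, stayed at or under 0.134 CPM in every library, below the level of 3 counts. The cortical glutamatergic sum ran against ERBB4 in H1, at 1680 to 2010 CPM in chronic libraries, 2260 to 3030 CPM in acute libraries and 2870 to 3560 CPM in controls, with r = -0.94 in H1 and 0.84 in H9, where the sum is low. The part of any of these cell types in the ERBB4 values was not tested.

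**Figure D2:**
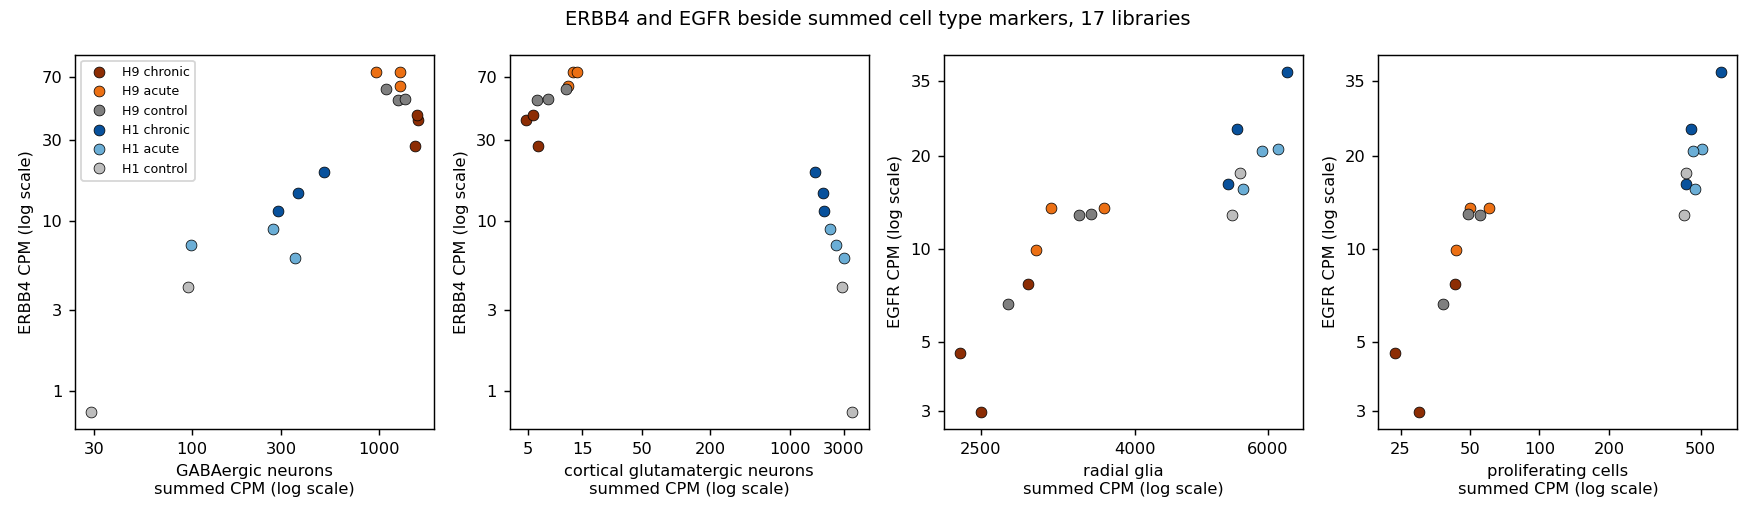
CPM of ERBB4 (left pair) or EGFR (right pair) against the summed CPM of a marker list, both on log axes, with 1 point per library in 17 libraries coloured by group. H9 chronic libraries lie right of the H9 controls on the GABAergic axis (1560 to 1610 against 1090 to 1380 CPM) and below them in ERBB4, whereas H1 chronic libraries lie right of and above the H1 controls.

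EGFR (chromosome 7, 55019017 to 55211628, plus strand), the receptor for EGF, TGFA and HBEGF, was lower in H9 than in H1 as the mean over treatments. Between the controls of the lines its log2 fold change was -0.47 ± 0.35 (edgeR adjusted p = 0.274), with overlapping ranges. In H9 it had 2.38, 1.25 and 3.86 TPM in chronic libraries, 7.03, 6.89 and 5.28 TPM in acute libraries and 6.36, 6.49 and 3.39 TPM in controls. In H1 it had 19.18, 12.33 and 8.12 TPM in chronic libraries, 7.89, 10.07 and 9.92 TPM in acute libraries and 8.63 and 6.46 TPM in controls. All 3 H9 chronic libraries were below the H9 acute libraries, and 2 of them were below every H9 control. In H9 the log2 fold change was -1.09 ± 0.34 for chronic against control (edgeR adjusted p = 0.215), 0.19 ± 0.32 for acute against control (edgeR adjusted p = 1) and -1.28 ± 0.34 for chronic against acute (edgeR adjusted p = 0.0843). Of the alternatives tried, the chronic values passed in the fit without a filter on low counts, at edgeR adjusted p = 0.0032 against control and 0.000198 against acute. In H1 the chronic value against control was 0.79 ± 0.35, with library 1 the highest of its group.

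In the authors' deposited table for chronic dopamine, 213 genes long, EGFR is the single member listed, with a signed fold change of -2.12, an FDR p of 0.04 and a log2 value of 1.08. The 2 columns have opposite signs in all 213 entries of the authors' deposited table. The sign of its fold column is that of the H9 chronic fit here for 201 of 201 fitted genes and that of the H1 chronic fit for 60 of 201. The authors' deposited table for acute dopamine, with 55 genes, lists no member.

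Sums of progenitor markers moved with EGFR across H9 libraries, although not every marker did. The 9 radial glia markers summed to 2350 to 2890 CPM in H9 chronic libraries, 2960 to 3640 CPM in H9 acute libraries and 2720 to 3500 CPM in H9 controls. In H1 chronic, acute and control libraries the sum was 5310 to 6360, 5560 to 6200 and 5390 to 5510 CPM, with overlapping ranges. HOPX, a radial glia marker, had its highest H9 mean in chronic libraries (33.7 ± 10.1 CPM, against 24.8 ± 2.97 in acute and 27.6 ± 2.79 in control libraries). PAX6, FABP7 and PTPRZ1 had close means in the H9 groups. The 5 markers of proliferating cells summed to 23.6 to 43.0, 43.4 to 60.3 and 38.1 to 55.4 CPM in H9 chronic, acute and control libraries, against 425 to 613 CPM in H1. Pearson's r of EGFR with the radial glia sum was 0.91 in H9 (n = 9) and 0.75 in H1 (n = 8), where library 1 was highest in both. The part of these cells in the EGFR values was not tested.

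ERBB2 (chromosome 17, 39687914 to 39730426, plus strand), the partner receptor without a ligand, was the most abundant receptor by TPM in every library but library 9 and H9 acute library 15, where ERBB4 was at 20.34 TPM and ERBB2 at 20.28 TPM. ERBB2 had 16.22 to 18.43 TPM in H9 chronic libraries, 20.28 to 27.41 TPM in H9 acute libraries and 20.23 to 26.57 TPM in H9 controls. In H1 it had 31.42 to 40.67 TPM in chronic libraries, 29.80 to 36.05 TPM in acute libraries and 30.43 to 33.39 TPM in controls. Every H9 library was therefore below every H1 library. The H9 log2 fold change was -0.38 ± 0.20 for chronic against control (edgeR adjusted p = 0.684), and the H1 values were 0.16 ± 0.22 for chronic and 0.08 ± 0.22 for acute dopamine against control.

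ERBB3 (chromosome 12, 56076799 to 56103505, plus strand), the receptor of Schwann and other glial cells with a weak kinase, had 3 to 20 counts per library. Its level was 0.15 to 0.56 TPM in H9 and 0.10 to 0.61 TPM in H1. It had 0.61, 0.52 and 0.44 TPM in H1 chronic libraries, 0.18, 0.10 and 0.43 TPM in H1 acute libraries and 0.21 and 0.20 TPM in H1 controls, so the chronic libraries were above both others on this scale. The log2 fold change of chronic dopamine against control was -0.16 ± 0.56 in H9 (edgeR adjusted p = 0.998) and 1.12 ± 0.65 in H1. The 9 markers of neural crest, Schwann and pigment cells summed to 19.1 to 21.6 CPM in H1 chronic libraries, 6.06 to 7.18 CPM in H1 acute libraries and 3.93 to 5.11 CPM in H1 controls. SOX10, the defining factor of that lineage, was at 0.113 to 0.446 CPM in the H1 chronic libraries, and in H1 acute libraries FOXD3 was at 0 in all 3. The part of these cells in the ERBB3 values was not tested.

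The make-up of the receptor transcripts differed between the lines. ERBB4 held 22.8% to 43.8% of the summed receptor TPM in H9 libraries and 0.472% to 8.43% in H1 libraries. ERBB2 held 43.7% to 71.6% in H9 and 62.1% to 83.0% in H1, and EGFR 4.86% to 15.8% in H9 and 16.1% to 29.3% in H1. Within H9 the receptor sum was 25.7 to 31.1 TPM in chronic libraries, below the 44.5 to 54.1 TPM of the acute libraries and the 37.5 to 46.1 TPM of the controls. Within H1 it was 43.7 to 65.5, 40.2 to 47.7 and 40.2 to 40.3 TPM in chronic, acute and control libraries. These sums are a description and were not tested.

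**Figure D3:**
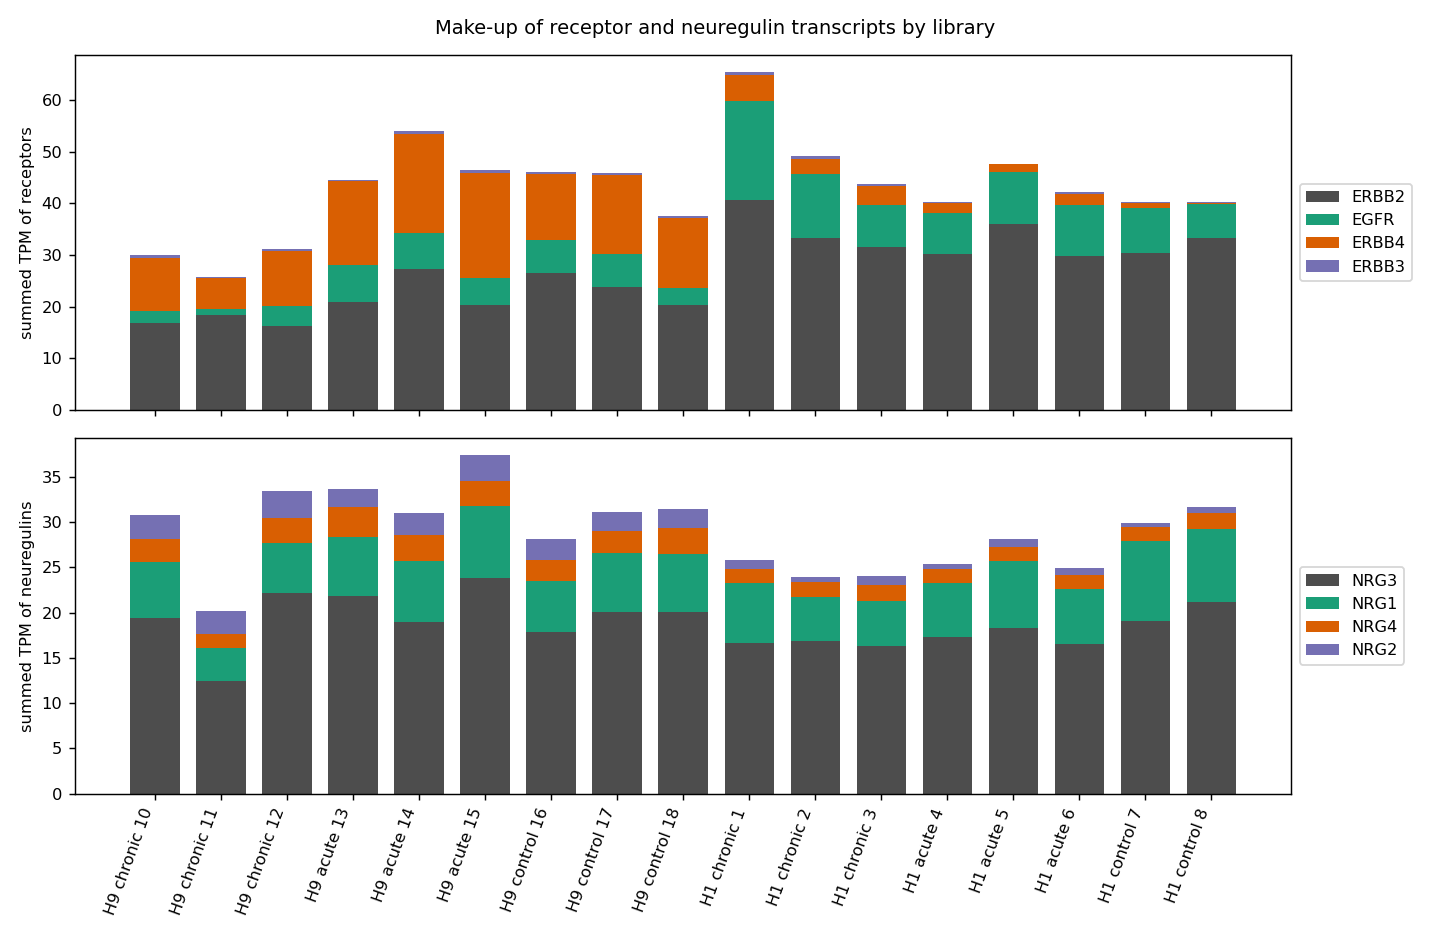
Stacked bars of TPM (from 0) for the 4 receptors above and the 4 neuregulins below, 1 bar per library in 17 libraries, labelled with group and library number. The receptor bars of the 3 H9 chronic libraries (25.7 to 31.1 TPM) are lower than those of every other library, and NRG3 fills 61.2% to 70.4% of every neuregulin bar.

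NRG3 (chromosome 10, 81875194 to 82987179, plus strand), a ligand of ERBB4 found mainly in the nervous system, was the most abundant neuregulin and held 61.2% to 70.4% of the neuregulin TPM in every library. Its group means lay between 16.6 TPM in H1 chronic libraries and 21.6 TPM in H9 acute libraries, and all neighbours in that order overlapped. In H1 it had 16.56, 16.79 and 16.31 TPM in chronic libraries, 17.25, 18.27 and 16.54 TPM in acute libraries and 19.04 and 21.11 TPM in controls, so both dopamine groups were below the controls. The H1 log2 fold changes against control were -0.25 ± 0.20 for chronic and -0.13 ± 0.19 for acute dopamine. In H9 they were -0.06 ± 0.18 and 0.10 ± 0.18 (edgeR adjusted p = 0.998 and 1).

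NRG1 (chromosome 8, 31639222 to 32855666, plus strand), which binds ERBB3 and ERBB4, followed NRG3 in level. It had 6.62, 4.88 and 4.95 TPM in H1 chronic libraries, 5.98, 7.43 and 6.07 TPM in H1 acute libraries and 8.81 and 8.07 TPM in H1 controls, with the controls above all dopamine libraries. The H1 log2 fold changes were -0.61 ± 0.20 for chronic and -0.31 ± 0.20 for acute dopamine against control. In H9 it had 6.14, 3.67 and 5.54 TPM in chronic libraries, 6.47, 6.75 and 7.97 TPM in acute libraries and 5.64, 6.45 and 6.32 TPM in controls. The H9 values were -0.22 ± 0.18 for chronic (edgeR adjusted p = 0.918) and 0.15 ± 0.18 for acute dopamine (edgeR adjusted p = 1). NRG1 and ERBB4 had a Pearson's r of 0.93 across the 9 H9 libraries and -0.68 across 8 H1 libraries on the log2(CPM + 1) scale. They share library depth and composition, and the lines differ in sign.

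NRG2 (chromosome 5, 139846779 to 140043299, minus strand), a ligand of ERBB3 and ERBB4, had 2.65, 2.53 and 2.95 TPM in H9 chronic libraries, 2.07, 2.40 and 2.90 TPM in H9 acute libraries and 2.27, 2.12 and 2.13 TPM in H9 controls. In H1 it had 0.95, 0.49 and 0.94 TPM in chronic libraries, 0.62, 0.87 and 0.70 TPM in acute libraries and 0.48 and 0.58 TPM in controls. No H1 library reached an H9 library. Chronic dopamine against control gave 0.38 ± 0.22 in H9 (edgeR adjusted p = 0.737) and 0.57 ± 0.29 in H1, a positive value in both lines. NRG4 (chromosome 15, 75935969 to 76059795, minus strand), a ligand of ERBB4, had 1.58 to 3.30 TPM in H9 and 1.55 to 1.81 TPM in H1. Its chronic values were -0.09 ± 0.17 in H9 (edgeR adjusted p = 0.992) and -0.01 ± 0.20 in H1.

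The comparison of the lines asks how their organoids differ in these genes, averaged over the treatments or in controls alone. As the mean over treatments, 5 of the 8 genes passed, against 69.3% of all genes tested, 3 of them higher in H9 (36.6% of all genes) and 2 lower (32.7%), so passing says little about a gene here and the sizes matter more. ERBB4, which is among the 5, was 8.01-fold higher in H9 (log2 fold change 3.0 ± 0.19), a value given with no p because its H1 libraries chose the set. The counts given here for the 8 genes include ERBB4 and are a description. NRG2 was 3.57-fold higher (log2 fold change 1.83 ± 0.14, edgeR adjusted p = 5.65e-10). NRG4 was higher by less (0.64 ± 0.11, edgeR adjusted p = 2.03e-05). EGFR (-1.15 ± 0.19, edgeR adjusted p = 2.13e-05) and ERBB2 (-0.64 ± 0.12, edgeR adjusted p = 7.59e-05) were lower. The ranges of the lines in CPM did not overlap for 4 of the 8, ERBB2, ERBB4, NRG2 and NRG4, against 43.8% of all genes. The median over the 8 genes was 0.20 against 0.03 over all genes. ERBB3 (0.28 ± 0.34), NRG1 (-0.15 ± 0.11) and NRG3 (0.13 ± 0.11) did not pass (edgeR adjusted p = 0.487, 0.224 and 0.294).

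Between H9 and H1 controls alone, 3 of the 8 passed, against 47.3% of all genes, and the CPM ranges did not overlap for 6 of the 8, against 75.7%. Those that passed were ERBB4, NRG2 (2.02 ± 0.28, edgeR adjusted p = 5.51e-06) and NRG4 (0.59 ± 0.20, edgeR adjusted p = 0.0183). ERBB4, at 4.50 ± 0.40, is set against the H1 control values that the choice rests on. That difference and the counts that include ERBB4 are therefore a description. ERBB2 (-0.40 ± 0.22) and NRG1 (-0.44 ± 0.20) did not pass with library 9 in the fit, at edgeR adjusted p = 0.132 and 0.0758, but passed without it, at 0.0419 and 0.0146. NRG1 also passed without library 11. EGFR did not pass between controls (-0.47 ± 0.35, edgeR adjusted p = 0.274). NRG4 no longer passed without library 7 (0.51, edgeR adjusted p = 0.122), without library 18 (0.51, edgeR adjusted p = 0.0677) within the libraries with gut transcripts (0.52, edgeR adjusted p = 0.37), without a filter on low counts (0.58, edgeR adjusted p = 0.0696), with DESeq2 (0.72, adjusted p = 0.145) or with limma on log2(TPM + 0.1), with library 9 (1.95, adjusted p = 0.0969) and without it (0.56, adjusted p = 0.0578).

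The start regions of 4 of the 5 genes that differed between the lines as the mean over treatments are shown to give the genomic context of their transcripts. They are RefSeq windows of the reference genome GRCh38.p14, not sequence of the lines, with 250 bases before and 50 after the start, in the direction of the gene, with the GC box GGGCGG or its reverse CCGCCC in capitals.
ERBB4, chr2:212538753-212539052, minus strand: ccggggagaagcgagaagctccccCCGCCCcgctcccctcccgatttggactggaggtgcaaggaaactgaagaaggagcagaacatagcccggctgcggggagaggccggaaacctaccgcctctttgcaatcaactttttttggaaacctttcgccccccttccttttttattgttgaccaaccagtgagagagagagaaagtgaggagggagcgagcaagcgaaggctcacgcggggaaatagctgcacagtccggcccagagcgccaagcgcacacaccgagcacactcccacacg
NRG2, chr5:140043250-140043549, minus strand: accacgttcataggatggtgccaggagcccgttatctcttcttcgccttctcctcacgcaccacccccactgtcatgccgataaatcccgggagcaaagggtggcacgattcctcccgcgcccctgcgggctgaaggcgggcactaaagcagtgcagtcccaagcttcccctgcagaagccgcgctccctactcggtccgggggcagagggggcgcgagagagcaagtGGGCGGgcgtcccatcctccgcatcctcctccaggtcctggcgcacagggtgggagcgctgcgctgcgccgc
EGFR, chr7:55018767-55019066, plus strand: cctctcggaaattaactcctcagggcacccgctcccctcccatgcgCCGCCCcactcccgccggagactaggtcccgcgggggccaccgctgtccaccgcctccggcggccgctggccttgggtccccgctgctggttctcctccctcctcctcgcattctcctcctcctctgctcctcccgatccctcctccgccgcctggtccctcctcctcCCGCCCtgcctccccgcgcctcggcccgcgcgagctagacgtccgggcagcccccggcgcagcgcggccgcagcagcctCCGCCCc
ERBB2, chr17:39687844-39688143, plus strand: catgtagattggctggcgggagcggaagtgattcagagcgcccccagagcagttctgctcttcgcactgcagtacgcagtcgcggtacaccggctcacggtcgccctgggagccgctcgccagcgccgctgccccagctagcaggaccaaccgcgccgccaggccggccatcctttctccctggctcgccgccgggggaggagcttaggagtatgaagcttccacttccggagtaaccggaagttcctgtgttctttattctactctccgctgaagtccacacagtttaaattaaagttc
Windows were found for 6 of the 8 genes, and where the table holds 2 for a gene the one nearest its annotated start was taken. The GC box occurs in 45.0% of the 35116 windows of that length and was found 3 times for EGFR, 1 time each for ERBB4 and NRG2 and 0 times for ERBB2. Neither TAATTA, a letter pattern of homeodomain factors present in 4.84% of windows, nor TATAAA, present in 11.5%, was found in these 4 on either strand. GC content was 59.0% for ERBB4, 66.7% for NRG2, 75.3% for EGFR and 60.7% for ERBB2, against a median of 58.7% over all windows. NRG4, whose window is not shown, went the other way, with 43.7% GC, TATAAA 2 times, the GC box 0 times and TAATTA 0 times. Its window (chr15:76012375-76012674) does not reach the annotated start of NRG4 at 76059795. These letters describe 1 window per gene and do not tell which factors bind there. Other starts of a gene, ERBB2 included, are not covered.

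Dopamine in H9 is the comparison that the choice of genes left untouched. For chronic dopamine against control 0 of the 8 genes passed in edgeR or DESeq2, against 0.576% of all genes, and 7 of the 8 had negative values, NRG2 being the exception. The CPM ranges did not overlap for 2 of the 8, ERBB4 and NRG2, against 13.4% of all genes, and in TPM ERBB2 did not overlap either. For acute dopamine against control 0 passed, against 0% of all genes in edgeR, and 7 of the 8 had positive values, ERBB2 being the exception. The CPM ranges did not overlap for 1 of the 8, ERBB4, against 9.75% of all genes, and in TPM NRG1 did not overlap either. For chronic against acute dopamine 0 passed, against 0.949%, and 7 had negative values. The CPM ranges did not overlap for EGFR, ERBB4 and NRG1 there, 3 of the 8 against 20.4% of all genes, and in TPM ERBB2 did not overlap either. Over all genes an unadjusted p under 0.05 was reached by 368 higher and 1059 lower for chronic against control, and by 166 higher and 227 lower for acute against control. The median log2 fold changes of the 8 genes in these 3 comparisons were -0.19, 0.14 and -0.27, against 0, 0 and -0.01 over all genes. For chronic against control ERBB3, NRG3 and NRG4 lay within 1 standard error of 0. The counts of signs are a description and were not tested. H9 chronic library 11 had the lowest value of its group for EGFR, ERBB3, ERBB4, NRG1, NRG3 and NRG4.

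In H1 the CPM ranges did not overlap for 4 of the 8 genes for chronic dopamine against control, with ERBB4 and ERBB3 higher and NRG1 and NRG3 lower, against 37.6% of all genes, and for 4 for acute dopamine, against 16.3%. In the acute comparison these were ERBB4 and NRG2 (0.49 ± 0.29), both higher, and NRG1 and NRG3, both lower. For chronic against acute dopamine they were 2 of the 8, ERBB4 higher and NRG3 lower, against 17.2%, while in TPM NRG3 overlapped and ERBB3 and NRG4 did not. All these H1 counts include ERBB4, which was chosen for its rise in H1, and those against control rest on 2 controls. They are a description. All 4 receptors had values of opposite sign in the lines for chronic dopamine against control, negative in H9 and positive in H1, ERBB2 and ERBB3 within 2 standard errors of 0 in each line. Whether the effects differ between the lines was not tested, since the H1 values chose the genes.

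**Figure D4:**
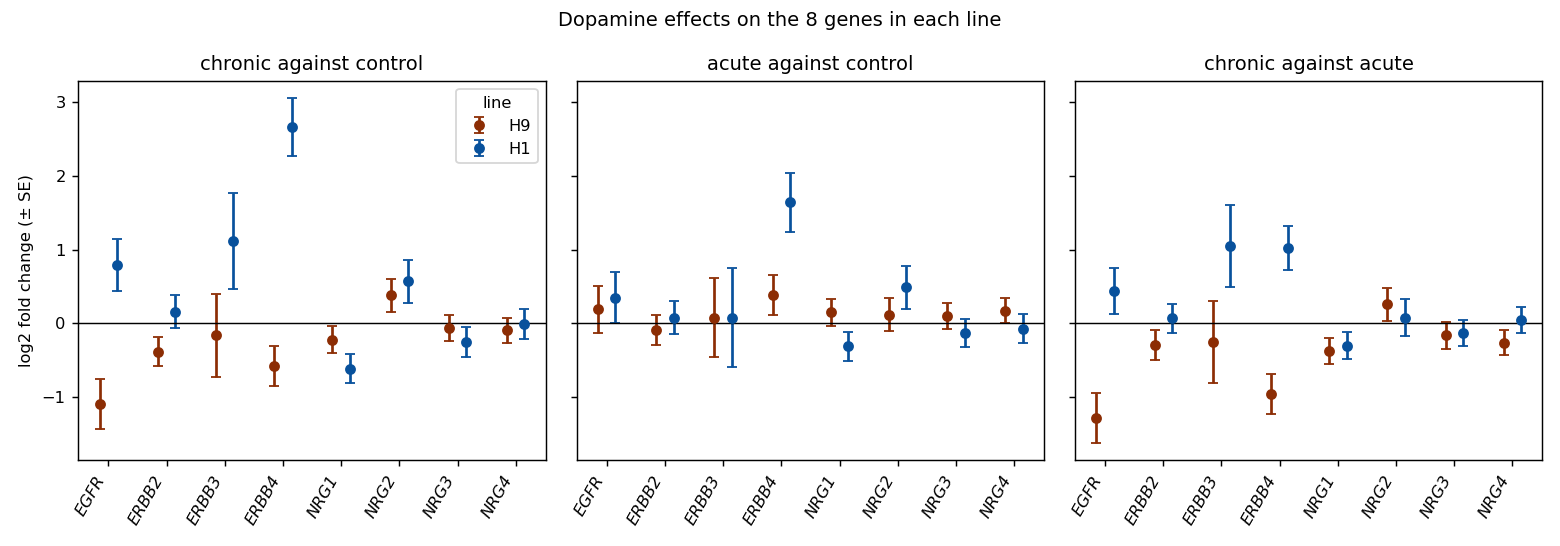
Log2 fold change ± SE of each gene in the 3 dopamine comparisons, H9 left of H1 for each gene. ERBB4 stands at 2.66 in H1 and -0.58 in H9 for chronic dopamine against control, and EGFR at 0.79 and -1.09.

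Among the other ERBB ligands, EGF, TGFA and HBEGF were high enough to test and AREG, EREG, BTC and EPGN were not. EGF, the founding ligand of EGFR, had 12.5 ± 0.317 CPM in H1 chronic libraries, 9.72 ± 1.24 CPM in H1 acute libraries and 7.05 ± 0.753 CPM in H1 controls, with ranges that did not overlap (12.2 to 12.8, 8.94 to 11.2 and 6.52 to 7.58 CPM). In H9 it had 9.30 ± 2.46, 9.97 ± 2.58 and 9.52 ± 1.32 CPM in chronic, acute and control libraries. TGFA (2.15 ± 0.17, edgeR adjusted p = 7.69e-10) and HBEGF (0.93 ± 0.10, edgeR adjusted p = 1.07e-07), 2 more ligands of EGFR, were higher in H9 than in H1 as the mean over treatments. EGFR itself was higher in H1 on that mean.

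The other pathway lists differed between the lines in both directions, against 69.3% of all genes called. Of 11 genes that shed ligands or cut receptors 6 were higher and 2 lower in H9, led by PSEN2 (2.31 ± 0.11), a subunit of the protease that cuts ERBB4, and RHBDF1 (2.08 ± 0.19). Of 30 adaptors and kinases 6 were higher and 10 lower, led by STAT5A (5.09 ± 0.17, 11 CPM in H9 against 0.342 CPM in H1), a transcription factor that ERBB4 activates, and GAB1 (-1.62 ± 0.11), an adaptor of EGFR. Of 14 genes of feedback and turnover 5 were higher and 6 lower, with the ubiquitin ligases CBLB (-1.56 ± 0.12) and WWP1 (1.2 ± 0.11). Of 20 ERK response genes 8 were higher and 10 lower, with SPRY4 (2.43 ± 0.10) and FOS (1.71 ± 0.12). Of 12 ERBB4 partners 1 was higher and 6 lower, with the scaffold genes DLG3 (-0.54 ± 0.09) and DLG2 (-0.54 ± 0.16). The list medians were 0.35, -0.02, -0.09, -0.23 and -0.26 on the log2 scale in that order, against 0.03 over all genes.

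In H9, 0 genes of these lists passed for chronic or acute dopamine against control in edgeR. For chronic against acute dopamine in H9, LRIG3, a membrane protein of the family of LRIG1, which lowers ERBB receptors, fell to 3.05 ± 0.872 CPM in chronic libraries, against 6.15 ± 0.891 CPM in acute libraries (-1.01 ± 0.23, edgeR adjusted p = 0.039). YAP1, a transcriptional partner of the ERBB4 fragment, fell in the same comparison (-0.98 ± 0.23, edgeR adjusted p = 0.047) and had -1.01 ± 0.23 for chronic against control (edgeR adjusted p = 0.0512). Both calls lie at the threshold: over 30 other settings edgeR, DESeq2 or limma adjusted p was up to 1, LRIG3 lost the call in 18 settings and YAP1 in 25. Of the 14 feedback genes 1 had a positive value for chronic against acute dopamine in H9, with a median of -0.29 against -0.01 over all genes. The 20 ERK response genes had a median of 0.04 for chronic and -0.05 for acute dopamine against control in H9, against 0 over all genes, and 0.00 and 0.01 in H1, against 0.05.

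The genes with the pattern most like that of ERBB4 were sought on the log2(CPM + 1) scale among 15440 genes. Over 17 libraries of both lines, which stand apart, Pearson's r was highest for B3GLCT (0.977), LAMA4 (0.967), LGR4 (0.966), HS6ST2 (0.966) and SLC18B1 (0.966). Over 8 H1 libraries it was highest for NRIP3 (0.992), CDO1 (0.986), GJA1 (0.98), PGAP3 (0.979) and LAMA4 (0.977). LGR4, a receptor for R-spondins, had 42.6 ± 9.08 CPM in H9 chronic libraries, 59.0 ± 7.74 CPM in H9 acute libraries and 51.1 ± 5.76 CPM in H9 controls. In H1 chronic, acute and control libraries it had 10.4 ± 1.25, 5.28 ± 1.33 and 2.67 ± 0.801 CPM. The order of the 6 means is that of ERBB4, with which LGR4 was picked for its high r. Unlike ERBB4, its H9 ranges overlapped (32.1 to 48.4 CPM in chronic, 44.7 to 55.9 in control and 51.8 to 67.2 in acute libraries). GJA1, the gap junction gene of radial glia and astrocytes, had 39.1 ± 10.6 CPM in H1 chronic libraries, 20.6 ± 5.20 CPM in H1 acute libraries and 5.49 ± 3.12 CPM in H1 controls.

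Most like EGFR over 17 libraries were CRB1 (0.943), LOC100996763 (0.941) and FGFR2 (0.932), and most like ERBB2 were SEMA5B (0.979), MRC2 (0.977) and SMO (0.972), the transducer of hedgehog signals. ERBB3 had CXCL12 (0.852), TMEM87A (0.743) and HEY1 (0.735), NRG1 had LCORL (0.817), ZC3H12B (0.795) and TOX (0.787), and NRG3 had ELAVL4 (0.899), a neuronal RNA-binding protein, GNAQ (0.895) and HIVEP1 (0.889). NRG2 had PCBP3 (0.985), GCSHP3 (0.983) and NUDT19 (0.983), and NRG4 had CTNNA3 (0.965), TMEM164 (0.963) and SLC35A5 (0.957). These libraries also come from both lines, and none of the values carries a test.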

How the data were processed

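Bulk RNA was sequenced from 18 libraries, poly(A)-selected, paired-end and strand-specific per the labels' protocols. Counts per gene symbol are raw reads as deposited by the authors, and TPM values are the authors' own, scaled by gene lengths that no source used here names. The authors deposited 2 tables of dopamine comparisons with a log2 fold change, an FDR p-value and a signed fold change (a score), without naming the libraries behind them. The submitters' processing notes name hg38.

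Groups came from the labels. Counts were scaled by TMM, filtered with filterByExpr over the 6 groups and fitted in 1 edgeR 4.0.16 quasi-likelihood model of 18 libraries (R 4.3.3), with Benjamini-Hochberg adjustment over 17173 genes and a threshold of 0.05. The SE is the absolute log2 fold change divided by the root of F. The edgeR fit was also run on counts simulated with the same mean profile in all groups, apart from a set of changed genes. That setting lacks the wide differences between the lines seen here, so it does not cover them. Among the symbols 28 were turned into dates by a spreadsheet and hold 0.439% of counts. No column of another series was used.

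The genes and lists were chosen with earlier results of these data known. Genes named from each list were those with the smallest adjusted p in a comparison, up to 4, and pattern-like genes those with the highest Pearson's r. Single marker genes (GAD1, OLIG1, OLIG2, MBP, MOG, SOX10, FOXD3, HOPX, PAX6, FABP7, PTPRZ1), EGF, LGR4 and GJA1 were chosen for values after these were seen. 1 marker of the oligodendrocyte list is not reported here and is left out of its sum, a choice made after its values were seen. Alternatives were DESeq2 1.42.0 (test and size factors), limma 3.58.1 on log2(TPM + 1) and log2(TPM + 0.1), other filters, the blood and gut split and leaving out each library.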

Additional observations from a re-analysis of the deposited data

Results flagged for a closer look

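ERBB4 moved in opposite directions in the lines where chronic dopamine was compared. For acute dopamine against control its log2 fold change was positive in both, at 0.38 in H9 and 1.64 in H1. For chronic dopamine against control its log2 fold change was -0.58 in H9 and 2.66 in H1, with all 3 H9 chronic libraries below every H9 control and all 3 H1 chronic libraries above both H1 controls used. For chronic against acute dopamine it was -0.96 in H9 and 1.02 in H1, again with no overlap between the groups of either line. The difference between the lines was not tested, since ERBB4 was chosen for its H1 values.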

How the results depend on the processing

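No paired analysis was possible because no replicate number is shared between groups. Of tested values under the alternatives, 1528 kept direction and side of the threshold, 62 lost the call, 20 gained it and 40 changed sign. As the mean over treatments 5 genes passed between the lines without any single library, 3 with limma on log2(TPM + 1) and 2 on log2(TPM + 0.1) with library 9, 5 on both scales without it, and 6 (NRG3 added) without libraries 9 and 11. Between controls the count was 2 to 5 with a library left out and 5 without libraries 9 and 11. In H9, without a filter on low counts, 1 gene (EGFR) passed for chronic against control and 2 (EGFR, ERBB4) for chronic against acute, where the count was 0 to 1 with a library left out and 1 (ERBB4) with limma on log2(TPM + 1) on all but library 9. With a library left out ERBB4 in H1 had 1.89 to 4.32 for chronic and 0.87 to 3.30 for acute dopamine against control.

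The limma fits with library 9 include its TPM of 0 for 7 genes. On log2(TPM + 1) and log2(TPM + 0.1) they reversed, between controls, EGFR (0.58 and 1.57), ERBB2 (1.25 and 2.33), ERBB3 (-0.67 and -0.82), NRG1 (0.67 and 1.68) and NRG3 (1.41 and 2.50), and over treatments ERBB3 (-0.23 and -0.26), NRG1 (0.23 and 0.56) and, on the second scale, ERBB2 (0.27) and DLG2 (0.32). For the other changes of sign the cause was not tested. NRG3 between controls had 0.11 with DESeq2 size factors, 0.17 with DESeq2 and -0.08 to 0.10 with a library left out. DESeq2 size factors moved the median of all genes to 0.14 over treatments and 0.18 between controls, against 0.03 and 0.06 with TMM. In H9, for chronic against control, ERBB3 had -0.50 to 0.07, NRG3 -0.20 to 0.08 and NRG4 -0.21 to 0.06 with a library left out, 0.08, 0.09 and 0.07 in that order without libraries 9 and 11, and NRG3 0.04 and NRG4 0.04 in libraries with gut transcripts. For acute against control EGFR had -0.07 to 0.35, ERBB2 -0.26 to 0.03 and ERBB3 -0.23 to 0.45 with a library left out, EGFR -0.15 in libraries with gut transcripts, and ERBB3 -0.27 with the split as covariate and -0.03 with limma on log2(TPM + 0.1) with and without library 9. For chronic against acute ERBB3 had -0.62 to 0.06 with a library left out. The fits without libraries 9 and 11 and limma on all but library 9 were chosen after seeing the data. ERBB3, at 3 to 20 counts a library, and the 2 deep H1 controls limit what can be told.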
